A study of Homo sapiens with 12 samples.

Results

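The genes described here are the 38 aminoacyl-tRNA synthetases of HepG2 cells, of 16389 genes in the count table. They were chosen by a rule on gene symbols, with earlier results of these data known. The rule took the standard enzyme symbols ending in ARS with and without the suffix 2, and EPRS, FARSA, FARSB and TARSL2. It found 21 enzymes of the cytosol and 17 with the suffix 2, which serve the mitochondrion. The 38 met the filter on low counts in every comparison, and their lowest count in any library was 18 reads. HepG2 is a human hepatocellular carcinoma line. Its cells were kept in low glucose (LG, 5.5 mM) or for 48 h in high glucose (HG, 20 mM), and cells of each medium were given the histone deacetylase inhibitor valproic acid (VPA, 1 mM) for a further 12 h (LGV and HGV). Each group had 3 libraries of poly(A) RNA, with 29798442 to 45572694 counted reads per library.

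An aminoacyl-tRNA synthetase joins one amino acid to its tRNAs, the step that ties the genetic code to protein. The cytosolic enzymes charge tRNAs for ribosomes of the cytoplasm, and several of them sit together in a multisynthetase complex held by the AIMP scaffold proteins. The mitochondrial enzymes are also nuclear genes, are imported, and charge the tRNAs that mitochondrial DNA encodes. GARS and KARS make both forms from one gene. EPRS joins glutamate and proline enzymes in one chain, and FARSA and FARSB are the subunits of one phenylalanine enzyme. Mitochondria have no separate glutamine enzyme, since EARS2 charges that tRNA with glutamate for an amidotransferase to convert. When amino acids are short, the transcription factor ATF4 is known to raise many cytosolic synthetase genes through a response element in their promoters.

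The promoters of 30 of the 38 genes were found in RefSeq windows of 250 bases before to 50 after a start of transcription (39 windows). Those without a window included DARS, LARS, TARSL2, VARS, YARS, AARS2 and VARS2. The core of the ATF4 element, TGATGNAA, was sought on both strands. It was present in 7 of 21 cytosolic windows (33.3%), in 1 of 18 mitochondrial windows (5.56%), and in 1270 of 35116 windows of all genes (3.62%). A longer motif of the endoplasmic reticulum stress response, CCAAT followed after 9 bases by CCACG, was present in 0 member windows and in 0.0769% of all windows. The matches are shown because the amino acid response genes are compared with the synthetases further on. Each is written 5′ to 3′ on the gene's strand, with the core in capitals and 10 bases on each side.
AARS: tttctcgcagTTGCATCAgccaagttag
CARS: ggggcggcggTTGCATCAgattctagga
GARS: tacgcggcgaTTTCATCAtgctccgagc
IARS: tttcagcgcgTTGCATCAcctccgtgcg
MARS: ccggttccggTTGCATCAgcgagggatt
NARS: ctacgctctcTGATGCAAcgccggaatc
TARS: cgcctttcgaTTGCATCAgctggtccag
YARS2: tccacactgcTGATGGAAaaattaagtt

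On GRCh37, to which each window matched once and exactly, these stretches lay at chr16:70323579-70323606 (AARS), chr11:3078638-3078665 (CARS), chr7:30634451-30634478 (GARS), chr9:95055975-95056002 (IARS), chr12:57881837-57881864 (MARS), chr18:55289037-55289064 (NARS), chr5:33441063-33441090 (TARS) and chr12:32909011-32909038 (YARS2). In 5 of the 7 cytosolic genes the core began within 15 bases of the RefSeq start, and it began 33 bases before the start of GARS, 187 before that of AARS and 197 before that of YARS2. A match of these letters is not a measured binding site.

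Levels are compared between genes as TPM, which divides reads by transcript length and sets each library to the same total. Between groups they are compared as CPM, reads set to a common library total with TMM factors. In LG, SARS, the serine enzyme, had the highest level (636 ± 66.3 TPM, SD, n = 3), above GARS (475 ± 56.8 TPM) in every library. SARS2, its mitochondrial counterpart, had the lowest (2.53 ± 0.754 TPM). The cytosolic enzymes stood above most mitochondrial ones. IARS2 (112 ± 10.6 TPM) and VARS2 (90.7 ± 6.66 TPM) were the mitochondrial enzymes that reached the range of the main cytosolic block, while FARSB (22.4 ± 4.67 TPM) and TARSL2 (8.21 ± 1.07 TPM) lay among the mitochondrial ones. TARSL2 is a second threonine enzyme of the cytosol. Of the 37 pairs of neighbours in the order of LG levels, 31 had overlapping libraries, so the order within most of the list is not resolved. The 6 steps that were resolved followed SARS, TARS, LARS, EARS2, HARS2 and PARS2.

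**Figure D1:**
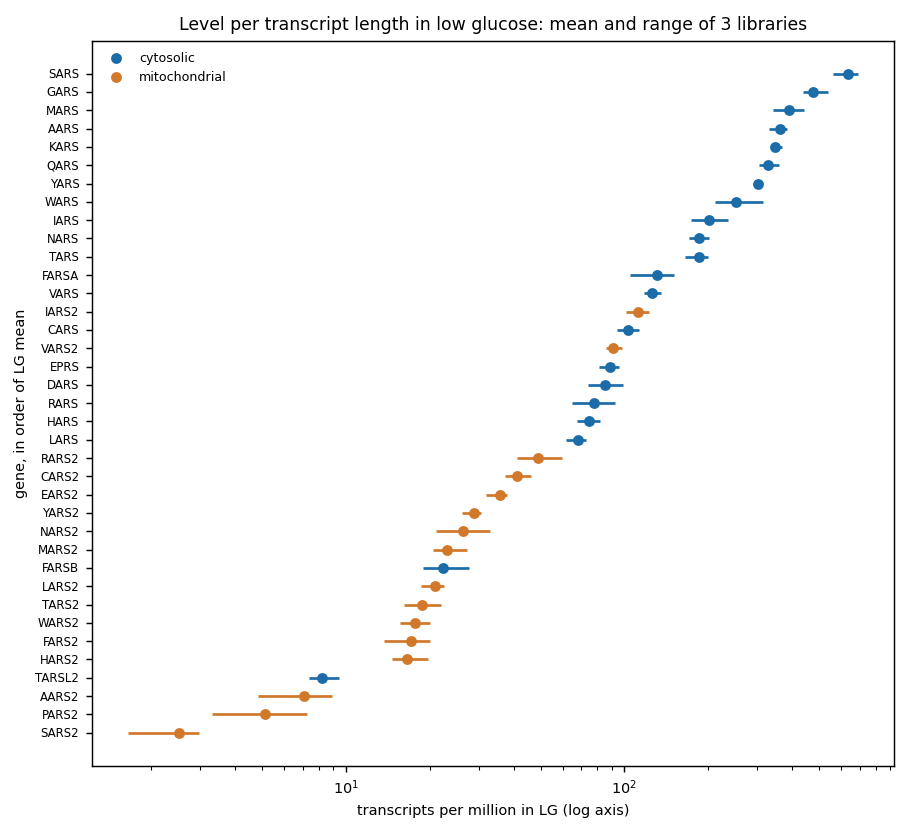
Level of 37 synthetase genes in low glucose, as TPM on a log axis; points are means and lines the range of 3 LG libraries. Cytosolic genes run from 8.21 (TARSL2) to 636 (SARS) and mitochondrial genes from 2.53 (SARS2) to 112 (IARS2).

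Summed over the 21 cytosolic genes, the level was 4452 ± 107 TPM in LG, 4120 ± 113 in HG, 3859 ± 108 in LGV and 3630 ± 108 in HGV (SD, n = 3). The libraries of the 4 groups did not overlap in this sum. Over the 17 mitochondrial genes the sums were 530.6 ± 51.5 TPM in LG, 574.1 ± 13.4 in HG, 476.5 ± 24.7 in LGV and 535.7 ± 13.6 in HGV. These overlapped between LG and every other group except LGV, whose highest library (491.6 TPM) was just below the lowest of LG (491.8 TPM). The cytosolic sum was 8.83, 9.179 and 7.35 times the mitochondrial one in LG and 7.07, 7.349 and 7.113 times in HG. It was 7.789, 8.415 and 8.12 times in LGV and 6.884, 6.918 and 6.534 times in HGV. HG was therefore below LG and HGV below LGV, although LG replicate 3 was level with the highest HG library. TPM carries no TMM factor, and these sums are given without a test.

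The first comparison asked what high glucose did without VPA. The largest change among the 38 genes was a fall of WARS, the cytosolic tryptophan enzyme, to 0.391 of its LG level, and HARS, the histidine enzyme, fell to 0.665. PARS2, the mitochondrial proline enzyme, rose 2.1-fold. Of the 21 cytosolic genes 1 was higher and 3 were lower, and of the 17 mitochondrial genes 1 was higher and 1 lower, at an FDR of 0.05 or less in edgeR's quasi-likelihood test. Of the 15452 genes tested, 12.0% were higher and 12.7% lower, so the number of synthetases called was no larger than the background. The median log2 fold change was -0.13 for the cytosolic and 0.10 for the mitochondrial genes, beside 0.01 for all genes. In these bulk libraries, fewer cells that express a gene and less RNA per cell cannot be told apart.

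WARS (ENSG00000140105, chromosome 14, 100800127 to 100843142 on GRCh37, minus strand) stood at 414, 312 and 257 CPM in the 3 LG libraries and at 123, 126 and 129 CPM in HG. The HG libraries were close together and all below LG, whose own libraries differed widely. The log2 fold change was -1.35 (SE 0.15, edgeR FDR 3.7e-06). HARS, at 79.9, 66.9 and 67.3 CPM in LG, was at 46.7, 47.7 and 45.6 CPM in HG. The groups did not overlap, and the log2 fold change was -0.59 (SE 0.13, edgeR FDR 0.00247). HARS shares 8.46% of its exonic bases with WDR55 and HARS2 on the other strand, and the sources do not state whether counting used strand.

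TARS, the main cytosolic threonine enzyme, read 221, 271 and 235 CPM in LG against 205, 164 and 176 CPM in HG. Its groups were apart by a small margin, with a log2 fold change of -0.39 (SE 0.13, edgeR FDR 0.0279). This call was lost without HG replicate 2 or 3, without LG replicate 1 or 2, and with scaling by library size alone, with an FDR of up to 0.161 over these. LARS, the leucine enzyme and a member of the multisynthetase complex, was the one cytosolic gene called higher. It read 147, 176 and 155 CPM in LG and 243, 193 and 202 CPM in HG (log2 fold change 0.43, SE 0.13, edgeR FDR 0.0166). Its groups did not overlap, but the call was lost without HG replicate 1 or LG replicate 1 (edgeR FDR up to 0.0769).

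Among mitochondrial enzymes, PARS2 (ENSG00000162396, chromosome 1, 55222571 to 55230196, minus strand) read 5.76, 3.97 and 7.89 CPM in LG and 11.1, 12.9 and 12.4 CPM in HG. Every HG library lay above every LG library, from counts of 154 to 444 reads. The log2 fold change was 1.07 (SE 0.21, edgeR FDR 0.00149). VARS2, the valine enzyme, moved the other way, from 176, 155 and 146 CPM in LG to 113, 116 and 120 CPM in HG. Its log2 fold change was -0.43 (SE 0.12, edgeR FDR 0.0138), and the call was lost without HG replicate 3 or LG replicate 1 (edgeR FDR up to 0.0882). AARS2, the mitochondrial alanine enzyme, was just outside the threshold (log2 fold change 0.49, SE 0.18, edgeR FDR 0.0542).

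The count of calls rested on single libraries. Without LG replicate 1, 2 cytosolic and 1 mitochondrial genes were called, and 1933 genes in all against 3813. Without HG replicate 3 the mitochondrial count was also 1, with 2076 genes in all. Without LG replicate 3, 6 cytosolic and 4 mitochondrial genes were called. With scaling by library size alone the median of all genes moved to 0.11, the calls over all genes became 2172 higher and 1297 lower in place of 1854 and 1959, and the mitochondrial calls became 3 higher and 1 lower. WARS, HARS and PARS2 were called under each of the 12 alternatives.

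**Figure D2:**
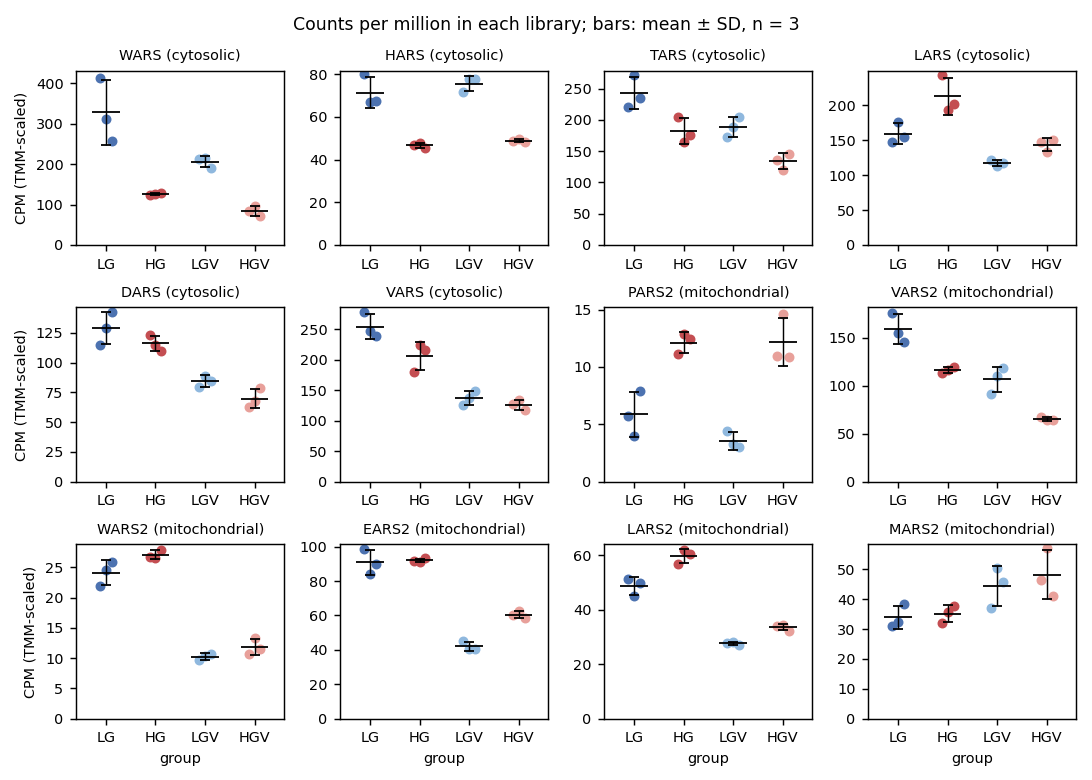
CPM (TMM-scaled) of 12 synthetase genes in each library, with the mean and SD of 3 libraries per group. WARS and HARS are lower in both high glucose groups, PARS2 is higher in both, and WARS2, EARS2 and LARS2 are lower in both VPA groups.

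The next comparisons asked what VPA did in each medium. In HG, 11 cytosolic genes were lower with VPA and 1 was higher, and 8 mitochondrial genes were lower and 2 higher. Of 16188 genes tested, 20.2% were lower and 25.8% higher. The synthetases were thus called lower more often than the background and called higher less often, a difference that was not tested. No background share given here was matched for expression level. The authors report that, with VPA in high glucose, weakly expressed genes went up and strongly expressed ones went down. The median log2 fold change was -0.31 for the cytosolic and -0.16 for the mitochondrial genes, beside 0.02 for all genes. In LG, 12 cytosolic genes were lower with VPA and 0 were higher in edgeR and in DESeq2's Wald test, and 7 mitochondrial genes were lower and 1 higher in edgeR. There the background was 19.9% lower and 21.7% higher of 15944 genes, and the medians were -0.35 for each class and -0.01 for all genes. At an unadjusted p under 0.05, 13 cytosolic genes were lower in LG and 0 higher. The time at which untreated cells were harvested is not given, so VPA and a further 12 h of culture cannot be told apart.

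In HG the smallest FDR among cytosolic genes belonged to DARS, the aspartate enzyme of the multisynthetase complex. DARS read 123, 115 and 110 CPM in HG and 63.0, 67.5 and 78.7 CPM in HGV. The HGV libraries were all lower, with a log2 fold change of -0.73 (SE 0.11, edgeR FDR 0.000151). GARS, the glycine enzyme of both compartments, went from 457, 495 and 498 CPM to 313, 317 and 271 CPM, again without overlap (log2 fold change -0.69, SE 0.10, edgeR FDR 0.000179). VARS, the cytosolic valine enzyme, went from 180, 224 and 216 CPM to 128, 134 and 117 CPM. Its log2 fold change was -0.71 (SE 0.11, edgeR FDR 0.000224).

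YARS, the tyrosine enzyme, was at 338, 379 and 364 CPM in HG and 239, 252 and 209 CPM in HGV (log2 fold change -0.63, SE 0.11, edgeR FDR 0.000415). WARS, already low in HG, was at 84.7, 95.4 and 72.6 CPM in HGV, below the 123 to 129 CPM of HG (log2 fold change -0.58, SE 0.11, edgeR FDR 0.00103). Both genes were apart in all libraries. The other cytosolic genes called lower were LARS, MARS, TARS, IARS, EPRS and SARS, with log2 fold changes from -0.56 to -0.31. The EPRS call was lost without HG replicate 1, HGV replicate 1 or HGV replicate 2 (edgeR FDR up to 0.128), and that of SARS without HG replicate 2 or 3 or HGV replicate 1 or 3 (edgeR FDR up to 0.152). MARS, the methionine enzyme, shares 12.4% of its exonic bases with ARHGAP9 and DDIT3 on the other strand. FARSB was the one cytosolic gene called higher. It read 79.9, 79.1 and 81.1 CPM in HG and 90.0, 104 and 96.8 CPM in HGV (log2 fold change 0.28, SE 0.10, edgeR FDR 0.0348). The call was lost in 8 of 12 alternatives, among them those without each of HG replicates 1, 2 and 3 and without HGV replicate 2 or 3 (FDR up to 0.11). Its partner subunit FARSA had a log2 fold change of -0.23 (SE 0.10, edgeR FDR 0.0736).

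The lowest fold changes belonged to mitochondrial enzymes, although the median of that class was nearer 0 than the cytosolic one and 6 of its 17 genes had positive values. WARS2, the mitochondrial tryptophan enzyme (ENSG00000116874, chromosome 1, 119573839 to 119683277, minus strand), read 26.7, 26.6 and 27.9 CPM in HG and 10.7, 13.3 and 11.5 CPM in HGV. This was 0.438 of the HG level, with a log2 fold change of -1.19 (SE 0.12, edgeR FDR 6.96e-06). VARS2 fell from 113, 116 and 120 CPM to 67.8, 64.4 and 64.6 CPM (log2 fold change -0.82, SE 0.09, edgeR FDR 1.62e-05). YARS2, the mitochondrial tyrosine enzyme and the one mitochondrial gene with a core in its window, fell from 26.8, 29.4 and 30.0 CPM to 13.6, 15.1 and 15.3 CPM (log2 fold change -0.97, SE 0.11, edgeR FDR 2.26e-05). In each of the 3 the groups lay well apart.

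SARS2 (-1.27), LARS2 (-0.83), EARS2 (-0.61) and HARS2 (-0.37) were also called lower, with their log2 fold changes in brackets. The HARS2 call was lost without HG replicate 3 or HGV replicate 3 (edgeR FDR up to 0.0852). The genes called higher were MARS2 and NARS2, the methionine and asparagine enzymes. MARS2 read 32.0, 35.7 and 37.9 CPM in HG and 46.5, 57.1 and 41.2 CPM in HGV (log2 fold change 0.46, SE 0.13, edgeR FDR 0.0134). NARS2 read 34.7, 33.1 and 33.9 CPM in HG and 44, 39.1 and 50.3 CPM in HGV (log2 fold change 0.39, SE 0.12, edgeR FDR 0.015). Both were apart in all libraries. Without HG replicate 1 the MARS2 call was lost (edgeR FDR 0.0534), and without HG replicate 2, HG replicate 3 or HGV replicate 3 that of NARS2 was lost (edgeR FDR up to 0.0743).

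In low glucose the cytosolic gene with the smallest FDR was VARS, at 278, 247 and 239 CPM in LG and 126, 137 and 149 CPM in LGV. Its level was 0.544 of that in LG (log2 fold change -0.88, SE 0.12, edgeR FDR 3.79e-05). YARS went from 380, 358 and 347 CPM to 228, 224 and 216 CPM (log2 fold change -0.69, SE 0.11, edgeR FDR 0.000209). DARS went from 115, 129 and 142 CPM to 79.1, 89.0 and 84.5 CPM (log2 fold change -0.60, SE 0.12, edgeR FDR 0.00109). All 3 genes were apart in every library. IARS, the isoleucine enzyme of the complex, was at 439, 395 and 487 CPM in LG and 291, 296 and 275 CPM in LGV (log2 fold change -0.61, SE 0.12, edgeR FDR 0.0012). FARSA was at 137, 96.0 and 116 CPM in LG and 81.9, 74.4 and 76.1 CPM in LGV (log2 fold change -0.57, SE 0.13, edgeR FDR 0.00317). The other 7 were WARS, SARS, GARS, LARS, TARS, EPRS and TARSL2, from -0.66 to -0.34. Without LGV replicate 3 the 12 cytosolic calls became 7, with GARS, SARS, EPRS, TARS and TARSL2 lost. GARS was also lost without LG replicate 2 or LGV replicate 1, SARS without LG replicate 1 or 2 or LGV replicate 1, and TARSL2 without LG replicate 1 or 3 or LGV replicate 2. TARS was lost without LG replicate 2 or any LGV library, and EPRS without LG replicate 2 or 3 or any LGV library. The highest edgeR FDR was 0.0712 for GARS, 0.0839 for SARS, 0.229 for TARSL2, 0.159 for TARS and 0.208 for EPRS.

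The mitochondrial falls in low glucose were as large. EARS2, the glutamate enzyme, read 98.5, 83.9 and 90.1 CPM in LG and 45.1, 40.5 and 40.6 CPM in LGV. This was 0.467 of the LG level (log2 fold change -1.10, SE 0.12, edgeR FDR 4e-06). WARS2 read 21.9, 24.5 and 25.9 CPM in LG and 9.63, 10.4 and 10.7 CPM in LGV, a change much like that seen in high glucose (log2 fold change -1.23, SE 0.14, edgeR FDR 9.16e-06). LARS2, the leucine enzyme, went from 51.3, 45.1 and 49.9 CPM to 27.8, 28 and 27.1 CPM (log2 fold change -0.81, SE 0.12, edgeR FDR 6.33e-05). None of these genes overlapped between the groups.

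SARS2 had the largest fold, at a low level. It had 76, 65 and 104 reads in LG and 20, 18 and 30 in LGV, or 2.84, 1.62 and 2.65 CPM against 0.60, 0.585 and 0.801 CPM (log2 fold change -1.81, SE 0.31, edgeR FDR 0.000268). YARS2 (-0.66), VARS2 (-0.56) and PARS2 (-0.71) were also called lower. PARS2 overlapped between the groups, and its call was lost without LG replicate 1 or 3 and without LGV replicate 2 or 3 (edgeR FDR up to 0.205). MARS2 was again the one called higher, from 31.1, 32.3 and 38.3 CPM to 37, 50.5 and 45.8 CPM (log2 fold change 0.40, SE 0.14, edgeR FDR 0.0333). Its groups overlapped, and its call was lost without LG replicate 1 or 2 and without LGV replicate 2 or 3 (edgeR FDR up to 0.167).

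**Figure D3:**
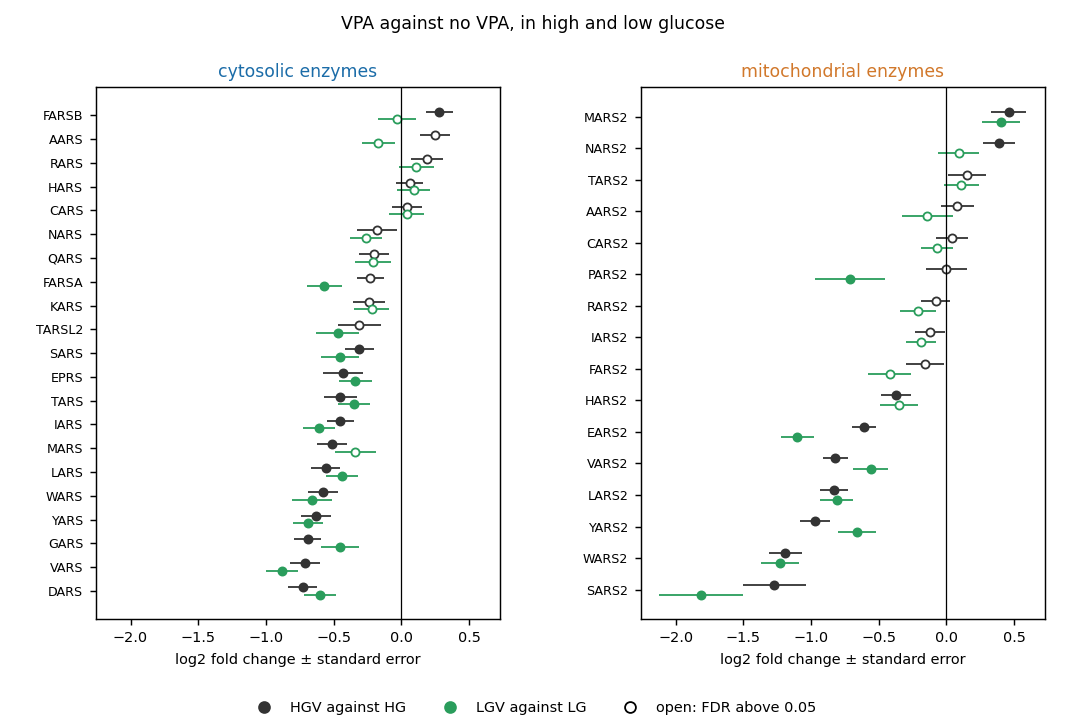
Log2 fold change with its standard error for VPA against no VPA, in high glucose (dark) and low glucose (green), for the cytosolic and mitochondrial genes named on the axes; filled points have an FDR of 0.05 or less. WARS2 lies at -1.19 and -1.23, and MARS2 is higher in both media.

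The VPA comparisons in the 2 media share no library. In both, 10 cytosolic genes were called lower (DARS, EPRS, GARS, IARS, LARS, SARS, TARS, VARS, WARS and YARS) and 6 mitochondrial genes (EARS2, LARS2, SARS2, VARS2, WARS2 and YARS2). Under each of the 12 alternatives the 6 mitochondrial genes were called lower in both media, as were DARS, IARS, VARS, WARS and YARS. Of 15743 genes tested in both media, 14.8% were called lower in both and 17.5% higher in both. MARS2 was called higher in both. In neither were 7 cytosolic genes called (AARS, CARS, HARS, KARS, NARS, QARS and RARS), nor 6 mitochondrial ones (AARS2, CARS2, FARS2, IARS2, RARS2 and TARS2). With scaling by library size alone the median of all genes moved to 0.15 in HG and 0.16 in LG. All genes were then called 5182 higher and 2424 lower in HG in place of 4184 and 3272, and 4500 and 1956 in LG in place of 3461 and 3177. No called synthetase changed direction with this scaling, with 9 cytosolic and 6 mitochondrial genes lower in HG, and 8 and 6 in LG. Calls lost with it included EPRS, SARS and HARS2 in HG, and EPRS, LARS, TARS, TARSL2 and PARS2 in LG, while AARS was gained in HG. The SARS call in HG was also lost with one fit of all 12 libraries.

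A further comparison asked what high glucose did in cells under VPA. WARS was lower here as well, HARS, TARS, GARS and CARS were lower, and PARS2 had its largest rise, 3.37-fold. In all, 1 cytosolic gene was higher and 5 were lower, while 6 mitochondrial genes were higher and 2 lower. Of 16208 genes tested, 21.2% were higher and 19.5% lower. The median log2 fold change was -0.11 for the cytosolic and 0.25 for the mitochondrial genes, and 0.01 for all genes. With scaling by library size alone, which put the median of all genes at 0.10, the cytosolic calls became 3 higher and 4 lower and the mitochondrial ones 7 and 1.

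WARS was at 213, 214 and 190 CPM in LGV and at 84.7, 95.4 and 72.6 CPM in HGV, 0.404 of the LGV level (log2 fold change -1.31, SE 0.13, edgeR FDR 1.01e-06). HARS was at 71.5, 77.5 and 77.7 CPM in LGV and at 48.5, 49.6 and 48.4 CPM in HGV (log2 fold change -0.65, SE 0.11, edgeR FDR 0.000242). Neither gene overlapped, and the HGV levels of HARS were close to those of HG. TARS read 172, 189 and 204 CPM in LGV and 135, 120 and 146 CPM in HGV (log2 fold change -0.52, SE 0.12, edgeR FDR 0.00313). GARS read 372, 438 and 427 CPM in LGV and 313, 317 and 271 CPM in HGV (log2 fold change -0.48, SE 0.13, edgeR FDR 0.00695). CARS, the cysteine enzyme, was called as well, at 127, 148 and 148 CPM in LGV and 108, 126 and 97.2 CPM in HGV. Its log2 fold change was -0.37 (SE 0.13, edgeR FDR 0.0277), and it was lost without HGV replicate 1 or 3 and without LGV replicate 2 or 3 (FDR up to 0.141). FARSB was called higher, from 83.8, 67.2 and 64.7 CPM to 90.0, 104 and 96.8 CPM (log2 fold change 0.41, SE 0.13, edgeR FDR 0.0148), and was lost without LGV replicate 2 or 3 (FDR up to 0.11).

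PARS2 was at 4.44, 3.25 and 3.02 CPM in LGV and at 11, 14.6 and 10.9 CPM in HGV (log2 fold change 1.75, SE 0.19, edgeR FDR 3.19e-06). The HGV libraries lay where the HG libraries did. AARS2 read 15.3, 13.2 and 15.9 CPM in LGV and 23.7, 24.8 and 23.5 CPM in HGV (log2 fold change 0.68, SE 0.13, edgeR FDR 0.000534). VARS2 was called against the majority, from 91.9, 110 and 118 CPM to 67.8, 64.4 and 64.6 CPM (log2 fold change -0.72, SE 0.12, edgeR FDR 0.000193). These 3 genes were apart in every library.

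YARS2 was the other mitochondrial gene called lower, from 16.3, 21.3 and 19.0 CPM to 13.6, 15.1 and 15.3 CPM (log2 fold change -0.38, SE 0.14, edgeR FDR 0.0362). EARS2 (0.50), NARS2 (0.37), RARS2 (0.36) and SARS2 (0.84) were the other genes called higher, with their log2 fold changes in brackets. The mitochondrial calls fell from 8 to 5 without HGV replicate 1 or HGV replicate 3, and to 4 without LGV replicate 2 or LGV replicate 3. YARS2, NARS2 and SARS2 were lost in each of these 4, with edgeR FDRs of up to 0.19, 0.149 and 0.226, and RARS2 without either of these LGV libraries or without HGV replicate 2 (up to 0.133). SARS2 was lost without LGV replicate 1 too. DESeq2's Wald test did not call SARS2 either.

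**Figure D4:**
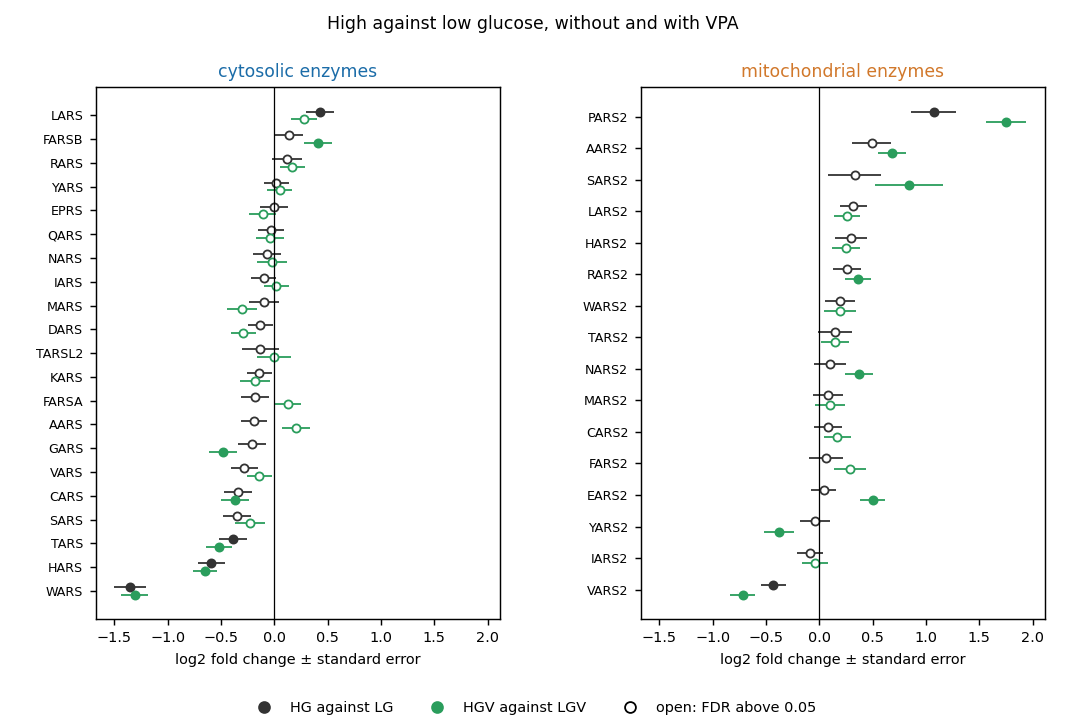
Log2 fold change with its standard error for high against low glucose, without VPA (dark) and with VPA (green); filled points have an FDR of 0.05 or less. WARS is lowest in both (-1.35 and -1.31) and PARS2 highest (1.07 and 1.75).

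The glucose comparisons without and with VPA also share no library. HARS, TARS, WARS and VARS2 were called lower in both and PARS2 higher in both, beside 9.9% lower in both and 8.85% higher in both of 15271 genes tested in both. Of the other genes, 14 cytosolic and 9 mitochondrial ones were called in neither. LARS was called higher without VPA, and with VPA its log2 fold change was 0.28 (SE 0.12, edgeR FDR 0.0612).

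Whether the VPA response differed with glucose was tested over the 12 libraries. In edgeR, 0 of the 38 genes passed, and 3 had an unadjusted p under 0.05. The background was 7 of 16389 genes (0.0427%), with 1852 at an unadjusted p under 0.05. DESeq2's Wald test called 162 genes, and again none of the 38. The 3 genes were EARS2 (difference of log2 fold changes 0.50, SE 0.15, edgeR FDR 0.176), AARS (0.43, SE 0.16, edgeR FDR 0.283) and PARS2 (0.72, SE 0.30, edgeR FDR 0.368). EARS2 fell under VPA by 1.10 on the log2 scale in LG and by 0.61 in HG, a difference that did not pass. PARS2 had a log2 fold change of -0.71 in LG and 0.00 in HG.

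Pairs of enzymes for one amino acid were compared within each library, as the log2 ratio of cytosolic to mitochondrial TPM. Such a ratio does not depend on how libraries are scaled. There were 17 pairs, with EPRS in those of glutamate and proline and FARSA standing for phenylalanine. In LG the mean ratio ran from 0.48 for valine (VARS to VARS2) to 8.02 for serine (SARS to SARS2). The changes below are differences of group means, as a description.

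In high glucose without VPA the ratio was lower for 14 pairs and higher for 3, with a median change of -0.22. Tryptophan moved most, by -1.52, from 4.32, 3.75 and 3.39 in LG to 2.29, 2.32 and 2.29 in HG. Proline followed with -1.13, from 4.06, 4.74 and 3.73 to 3.45, 2.78 and 2.89, and histidine with -0.89, from 2.40, 2.21 and 1.92 to 1.26, 1.39 and 1.21. In these 3 pairs the groups did not overlap. The tryptophan and histidine shifts went mostly with a lower cytosolic gene. Their mitochondrial genes WARS2 and HARS2 had log2 fold changes of 0.19 and 0.30 and were not called (edgeR FDR 0.349 and 0.145). The proline shift went with a higher mitochondrial gene, since EPRS had a log2 fold change near 0. Tyrosine (0.05) and isoleucine (-0.01) moved least. With VPA the ratio was lower in high glucose for 13 pairs and higher for 4, with a median of -0.39. Proline (-1.88), tryptophan (-1.50) and serine (-1.07) moved most, and isoleucine (0.07) and leucine (0.01) least.

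With VPA the pairs did not move one way. In HG 9 ratios rose and 7 fell, with 1 at -0.00 to 2 decimals and a median of 0.12, and in LG 8 rose and 9 fell, with a median of -0.03. Serine rose most in both, by 0.98 in HG and 1.35 in LG, as SARS2 fell more than SARS. Its ratio was 7.80, 8.69 and 7.56 in LG and 9.28, 9.71 and 9.11 in LGV, so the groups were apart. Methionine fell in both, by 0.96 in HG and 0.73 in LG. The MARS to MARS2 ratio was 3.92, 4 and 3.87 in HG and 2.99, 2.86 and 3.07 in HGV, with MARS lower and MARS2 higher. Tryptophan rose by 0.61 in HG, and glutamate rose by 0.76 in LG. Phenylalanine (-0.06) and cysteine moved least in HG, and alanine (-0.05) and tyrosine (-0.03) least in LG.

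**Figure D5:**
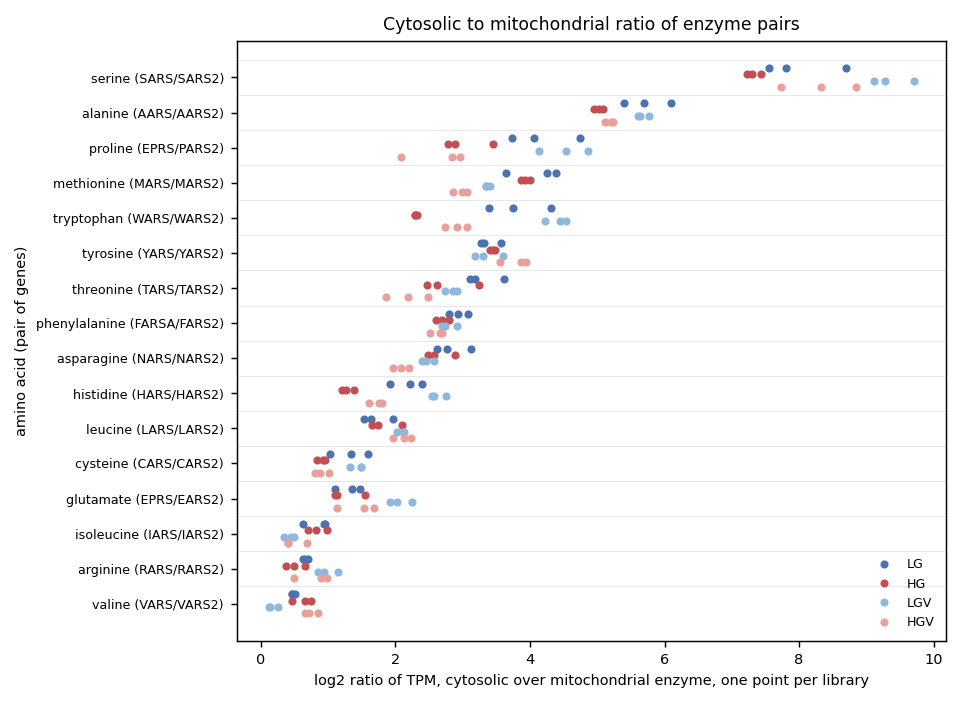
Log2 ratio of cytosolic to mitochondrial TPM for 16 of the 17 amino acids, one point per library, coloured by group. The serine ratio is the highest in LG (mean 8.02) and the valine ratio the lowest (0.48), and the tryptophan points of HG (2.29 to 2.32) lie apart from those of LG (3.39 to 4.32).

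The cytosolic genes were also divided by place, and all 38 genes, cytosolic and mitochondrial together, by fold of the protein. The shares of all genes called lower under VPA, 20.2% in HG and 19.9% in LG, are the background for the VPA counts. Of the 8 whose products are in the multisynthetase complex, 5 were lower under VPA in HG and 4 in LG, and 0 were higher. Of the 13 outside it, 6 were lower and 1 higher in HG, and 8 were lower in LG. Median log2 fold changes were -0.44 in HG and -0.34 in LG inside the complex, and -0.31 and -0.45 outside it, so neither subset had the larger fall in both media. For glucose, 1 gene of the complex (LARS) was called without VPA, against 3 outside it. With VPA 0 of the complex were called in edgeR (3 at an unadjusted p under 0.05), against 6 outside it. Over all genes 24.7% were called without VPA and 40.7% with it, beside 23.1% and 46.2% outside the complex. The difference between the subsets was not tested. The 0 was not stable: without LGV replicate 1, DARS, LARS and MARS were called, and without HGV replicate 2, LARS and MARS. LARS was also called with library size alone and with one fit of all 12 libraries. Synthetases fall into class I and class II by the fold of their catalytic domain, and EPRS holds one of each. Under VPA in HG 11 of 18 class I genes and 7 of 19 class II genes were lower. In LG the counts were 10 of 18 and 8 of 19, and the difference between the classes was not tested.

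Cytosolic genes with the ATF4 core in a window were compared with those that had a window without it. In HG 4 of the 7 with a core were lower under VPA (median log2 fold change -0.45). Of the 9 without it, 3 were lower and 1 higher (median -0.23), beside 20.2% lower and 25.8% higher of all genes. In LG the counts of lower genes were 3 of 7 (median -0.34) and 4 of 9 (median -0.22), beside 19.9% of all genes. In high glucose without VPA 1 of 7 was called lower (median -0.19) against 2 of 9 (median -0.14), beside 12.7% of all genes. With VPA 3 of 7 were lower in high glucose (CARS, GARS and TARS; median -0.30), and of the 9 without a core 2 were lower and 1 higher (median -0.11), beside 19.5% lower and 21.2% higher of all genes. WARS, HARS and PARS2 had no core in their windows, and LARS, VARS2 and AARS2 had no window. The cytosolic genes without a window (DARS, LARS, TARSL2, VARS and YARS) were in neither set. Of these, DARS, LARS, VARS and YARS were called lower under VPA in both media.

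The amino acid response was followed through 28 genes, regulators and targets of ATF4 other than synthetases. In high glucose 3 were higher and 11 lower (50% called, beside 24.7% of all genes), with a median log2 fold change of -0.13. SLC3A2, the heavy chain of amino acid exchangers, fell by 1.70 on the log2 scale, as did the stress factor DDIT3 (edgeR FDR 4.54e-07 and 4.04e-05). CHAC1, a glutathione-degrading enzyme, rose by 1.11 (edgeR FDR 0.00207) at a low level, with means of 1.88 CPM in LG and 3.98 in HG. ASNS (0.39) and SLC7A11 (0.44) were the others called higher. Under VPA 2 were higher and 13 lower in HG (53.6% called beside 46.1% of all genes, median -0.23), and 1 was higher and 17 lower in LG (64.3% beside 41.6%, median -0.45). NUPR1 (-2.99 in HG, -2.68 in LG), ATF5 (-2.26 and -1.59), both transcription regulators, and SHMT2 (-1.14 and -1.19), a mitochondrial serine enzyme of one-carbon metabolism, fell most. Between HGV and LGV 5 were higher and 10 lower (53.6% beside 40.7%, median -0.06). CHAC1 (2.13, means of 1.69 CPM in LGV and 7.5 in HGV), ATF5 (-1.56) and DDIT3 (-1.44) moved most. ATF4 itself, named after its values were seen, averaged 869 CPM in LG, 646 in HG, 638 in LGV and 461 in HGV, and was called lower in all 4 comparisons. ATF4 is controlled chiefly in translation, which these libraries do not measure.

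Scaffold and partner genes were read from smaller lists. As background for these lists, 24.7% of all genes were called for glucose without VPA and 40.7% with it. For VPA the shares were 46.1% in HG and 41.6% in LG. AIMP1 and AIMP2, scaffolds of the multisynthetase complex, were 2 of 3 genes called lower under VPA, by 0.66 and 0.55 on the log2 scale in HG and by 0.59 and 1.05 in LG. With glucose 0 of the 3 were called without VPA in edgeR (0 at an unadjusted p under 0.05), and AIMP2 was called higher with VPA (0.45, edgeR FDR 0.0192). QRSL1 and PET112, subunits of the amidotransferase that makes mitochondrial glutaminyl-tRNA, were 2 of 4 genes called lower under VPA, by 0.60 and 0.44 in HG and by 0.37 and 0.51 in LG. With glucose 0 of these 4 were called without VPA in edgeR (0 at an unadjusted p under 0.05). With VPA, MTFMT, which formylates methionyl-tRNA in mitochondria, was higher (0.84, edgeR FDR 0.000816) and QRSL1 lower (-0.49, edgeR FDR 0.00432).

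Of 5 proofreading and selenocysteine-tRNA genes, SEPSECS (0.68) and DTD2 (0.66) were higher in HG than LG, and DTD2 (0.70) and SEPSECS (0.52) were higher in HGV than LGV. PSTK, the kinase of seryl-tRNA for selenocysteine, fell under VPA by 1.10 in HG and 0.78 in LG, and SEPSECS fell by 0.61 in HG. Of 13 mitochondrial tRNA maturation genes, 2 were higher and 3 lower under VPA in HG, 1 and 2 in LG. These shares, 38.5% and 23.1%, were below the 46.1% and 41.6% of all genes called, and the genes are named as single values only. PUS1, a pseudouridine synthase, fell by 0.77 and 0.97. MTO1 (-0.54) and HSD17B10 (0.44) were called in HG, and TRMT10C (0.45) in LG. ELAC2 was called lower in both media (-0.38 in HG and -0.41 in LG). With glucose TRMT5 was higher (0.74 without and 0.77 with VPA) and TRMU lower (-0.41 and -0.49), among 1 higher and 1 lower without VPA and 2 and 2 with it, where MTO1 was at -0.66.

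Of 11 mitochondrial translation factors, 2 were higher and 4 lower under VPA in each medium, 54.5% beside 46.1% of all genes in HG and 41.6% in LG. MTIF2, the initiation factor, fell by 0.76 in HG and 0.71 in LG, and ICT1, a ribosome rescue factor, by 0.65 and 0.91. GFM2 rose by 0.66 in HG and 0.50 in LG, and MTRF1L by 0.38 and 0.51. C12orf65 was lower in both (-0.55 in HG and -0.76 in LG). With glucose MTRF1L was the one of the 11 called, and fell by 0.51 without VPA and by 0.67 with it. AIMP1, AIMP2, QRSL1, PET112 and MTIF2 were among the listed genes called lower with VPA in both media. So were 16 of the 38 synthetases and 14.8% of all genes tested in both. GFM2 and MTRF1L were called higher in both media, beside 17.5% of all genes.

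As a check of the label, the 10 hepatocyte markers fixed for these cells were at 125 CPM or more in every library. Of 6 markers of other cells, PTPRC, PECAM1 and COL1A2 were not in the table, and CDH5, COL1A1 and LYVE1 were at 2.64 CPM or less.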

How the data were processed

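RNA-seq counts from 12 HepG2 libraries (3 per group) were used, with groups taken from the sample labels. The authors trimmed reads of 50 nt and mapped them to GRCh37 with STAR, and featureCounts assigned them to Ensembl genes (release 75). They deposited raw counts for 16389 genes with a mean of at least 10. The kit was directional, and whether counting used strand is not stated. The libraries are described as triplicates, and separate cultures are not stated, so p-values measure only the spread between these libraries. No sequencing batch is named in the sources used here.

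Genes with a mean of at least 10 in the libraries compared entered edgeR 4.0.16 under R 4.3.3 (TMM factors, quasi-likelihood F test, Benjamini-Hochberg FDR of 0.05 or less), and the interaction over 12 libraries. TPM used the canonical transcript length of GENCODE on GRCh37. The total counts give each library's depth, and 3 reads were taken as the floor, which no synthetase reached. The common biological coefficient of variation was 0.129 to 0.149. Pairing by replicate number was checked by correlation of deviations from group means. Alternatives were DESeq2 1.42.0 size factors and Wald test, library size alone, no filter, a replicate block, one fit of all 12 libraries and leaving out each replicate. Scripts were tested on simulated data. Promoter windows came from RefSeq (GRCh38.p14) and were matched to GRCh37.

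Genes named were, per comparison, the called synthetases of smallest FDR (up to 5 cytosolic and 3 mitochondrial), those called against their class, up to 3 called genes per list with the largest change, and the 3 pairs that moved most and 2 that moved least. Others are named to complete a count. One gene is included in the counts but is not reported here. The lists were AIMP scaffolds, amidotransferase and formylation, proofreading and selenocysteine-tRNA enzymes, mitochondrial tRNA maturation, mitochondrial translation factors, the amino acid response and mitochondrial tRNA genes. The members and lists were chosen with earlier results of these data known. Python 3.11.15 with pandas 2.3.3 and matplotlib 3.10.9 was used for summaries and plots.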

Additional observations from a re-analysis of the deposited data

How the results depend on the processing

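In the comparison of HG with LG, 4 cytosolic genes were called and leaving out a replicate gave 2 to 6. The 2 mitochondrial calls became 4 with library size alone and 4 with one fit of all 12 libraries, and 1 to 4 without a replicate. Over all genes, 3813 calls became 1933 to 5338 without a replicate. Leaving out a replicate gave 7 to 11 cytosolic calls for LGV against LG (12 with all libraries) and 4 to 7 mitochondrial calls for HGV against LGV (8 with all libraries). The 7 interaction calls became 1 with library size alone, 162 with DESeq2's Wald test, 13 with the replicate block, and 1 to 217 without a replicate, and no synthetase was among them under any alternative. Calls held under all 12 alternatives for 3 of 6 synthetases in HG against LG, 15 of 22 in HGV against HG, 12 of 20 in LGV against LG and 8 of 14 in HGV against LGV, and no called value changed sign. The cause of these shifts was not tested, and the fits without a replicate also had fewer libraries.

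Correlations of the deviations of same-numbered libraries ran from -0.201 to 0.295 over the 4 comparisons (-0.156, -0.0822 and 0.00539 for HG and LG, and 0.026, 0.195 and 0.0288 for HGV and LGV). They were over 0.1 for every pair in no comparison, so the number was not taken as a pairing. With the replicate block the synthetases called were 6, 22, 21 and 17 in the order above, against 6, 22, 20 and 14. The block lost TARS and gained AARS2 in HG against LG, gained MARS in LGV against LG, and gained DARS, LARS and MARS, all of the multisynthetase complex, in HGV against LGV. Depth limits SARS2 most, with 18 to 114 reads per library.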

Other observations

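The substrates of the mitochondrial enzymes were also in the table, as 15 mitochondrial tRNA genes. With glucose 2 were higher and 6 lower, both without and with VPA (53.3% called, beside 24.7% of all genes without VPA and 40.7% with it), and for VPA itself 0 were called in either medium (edgeR; 0 had an unadjusted p under 0.05). MT-TI fell from a mean of 8.75 CPM in LG to 1.07 in HG (log2 fold change -2.99, SE 0.34, edgeR FDR 6.13e-06) and from 11.1 in LGV to 0.918 in HGV (-3.57, SE 0.28, edgeR FDR 1.04e-07). MT-TM (-2.25) and MT-TF (-2.21) were next without VPA, and MT-TL1 (-1.91) with it. MT-TY was higher, with means of 37 CPM in LG and 81.1 in HG, and of 29.4 in LGV and 112 in HGV (log2 fold change 1.91, SE 0.29, edgeR FDR 6.61e-05 with VPA). Its neighbour MT-TC, named after its values were seen, averaged 12.4 CPM in LG and 28.7 in HG. In libraries selected for poly(A) such reads may come from precursors or mature tRNA, which cannot be told apart here. Whether counting used strand is not stated, so reads from the other strand cannot be set apart either.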
